A study of Mus musculus with 5 samples.

Results

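The genes studied here encode the enzymes that place, maintain and remove methyl groups on cytosines of DNA. They were fixed as a list of 9 names, Dnmt1, Dnmt3a, Dnmt3b, Dnmt3l, Tet1, Tet2, Tet3, Uhrf1 and Tdg. A gene was measured if a probe of the array is paired with exactly 1 gene symbol and that symbol is its own. By this rule 8 of the 9 genes were measured, each by 1 probe, among 22180 genes with such a probe. Tdg was not measured, because its 2 probes are also paired with Tdg pseudogenes. All 8 measured genes reached 4.78, the median of all deposited log2 values, on at least 1 array, and belong to the 15436 genes compared below.

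Gene expression was profiled on Affymetrix Mouse Gene 2.0 ST arrays in 5 conditions, with 1 array for each. The study asked how alveolar epithelial type II (AEC-II) cells, the surfactant-producing cells of the lung, respond to a short pulse of 4 reprogramming factors, namely c-Myc, Klf4, Oct4 and Sox2. The donor mice, labelled adult, were double transgenic for R26-rtTA/Col1a1::tetO-4F2A, a system in which doxycycline (Dox) switches on the 4-factor transgene, so that untreated cells carry the transgene too. Equal amounts of RNA from separate samples of a group were used, and whether these were combined on 1 array is not stated. On the Day0 array are AEC-II cells taken fresh from the lung, with neither culture nor Dox. The 2WND array holds cells cultured for 2 weeks without Dox, the 2WND+2W+D array such cells after a further 2 weeks with Dox, and the 2WND+2W+D+2W-D array cells kept for 2 more weeks in Dox-free medium. The fifth array holds induced pluripotent stem (iPS) cells, whose origin and Dox history are not given. The cultures were grown in Matrigel on inserts coated with mouse embryonic fibroblast feeders, and the methods place the first 2 weeks in epithelial medium and the Dox step, after passaging, in ES medium. Dox, passage, time and medium therefore cannot be told apart on these arrays.

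DNA methylation at CG dinucleotides is kept through cell division by DNMT1, which copies the mark onto the new strand, and by UHRF1, which recognises the half-methylated site and brings DNMT1 to it. DNMT3A and DNMT3B methylate sites that were unmethylated before, and DNMT3L is a relative without catalytic activity that stimulates them in germ cells and early embryonic cells. TET1, TET2 and TET3 oxidise methylcytosine, and TDG cuts out the more oxidised forms, so that base excision repair can restore plain cytosine. Pluripotent mouse cells are known for high levels of de novo enzymes and of Tet1, and the removal of methylation from pluripotency genes is part of reprogramming.

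The promoters of these genes differ in their own CG content, the feature on which their products act. RefSeq promoter windows of the assembly GRCm38.p6, which run from 250 bases before to 50 bases after a start site, were found for all 9 genes, 16 windows in all. Over 32851 windows the median was 7 CG dinucleotides in 300 bases. The 3 windows of Dnmt3l held 6, 4 and 3 of them, whereas the single window of Dnmt3b held 30 and that of Tet2 held 57. One window of Dnmt3l and that of Dnmt3b are shown because both genes had by far their highest value in iPS cells (below), while their promoters stand far apart in CG content. Capitals mark each CG, and both sequences read 5′ to 3′ on the plus strand.
Dnmt3b, chr2:153649199-153649498: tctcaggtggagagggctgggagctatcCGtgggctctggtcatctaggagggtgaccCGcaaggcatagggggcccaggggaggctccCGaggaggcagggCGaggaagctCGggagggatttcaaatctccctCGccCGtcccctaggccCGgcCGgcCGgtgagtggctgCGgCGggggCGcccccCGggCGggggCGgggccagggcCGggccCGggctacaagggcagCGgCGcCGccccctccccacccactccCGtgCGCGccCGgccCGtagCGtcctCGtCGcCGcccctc
Dnmt3l, chr10:78055085-78055384: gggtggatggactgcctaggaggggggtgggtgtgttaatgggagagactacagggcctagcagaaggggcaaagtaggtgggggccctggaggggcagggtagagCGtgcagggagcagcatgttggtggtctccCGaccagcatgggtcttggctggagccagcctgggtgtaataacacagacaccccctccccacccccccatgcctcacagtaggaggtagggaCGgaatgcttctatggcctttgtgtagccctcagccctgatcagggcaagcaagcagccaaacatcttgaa

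**Figure D1:**
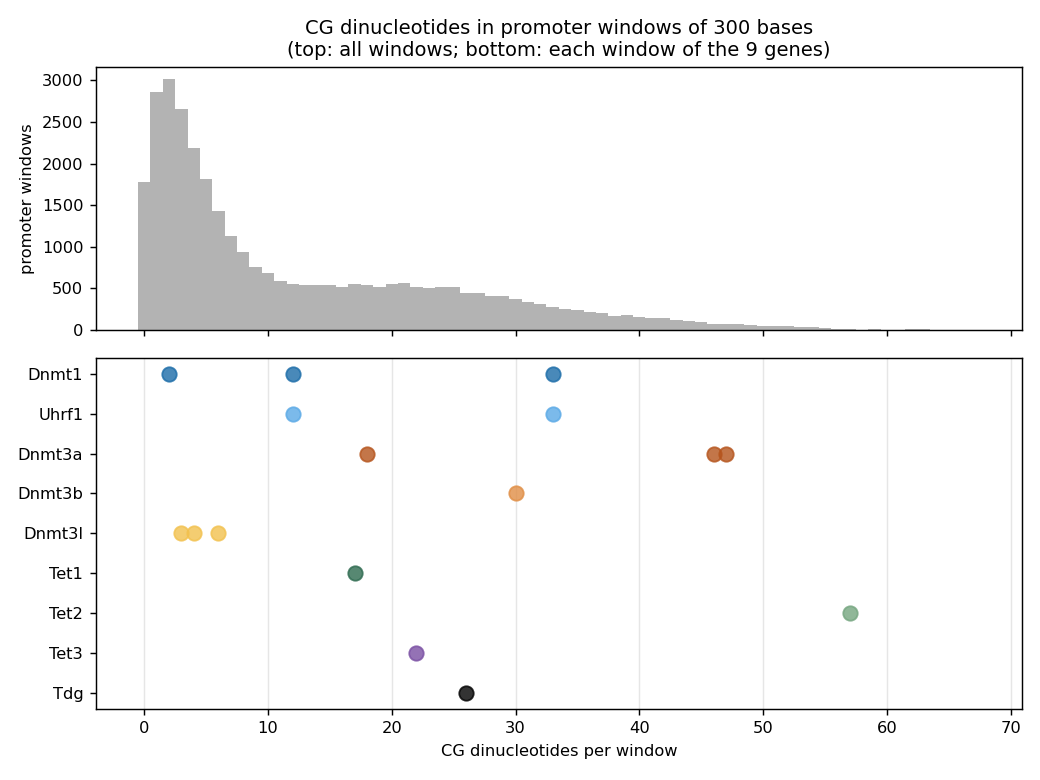
Number of CG dinucleotides (x axis) in RefSeq promoter windows of 300 bases. The upper panel counts all 32851 windows, and each point of the lower panel is 1 window of 1 of the 9 genes. The windows of Dnmt3l lie at 3 to 6 and that of Tet2 at 57.

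The promoters were also searched on both strands for 4 spellings of the site of E2F factors, which drive genes of DNA replication, namely TTCCCGC, the spelling TTGGCGC, the spelling TTCGCGC and the spelling TTGCCGC. Of the 9 genes, 2 held such letters, Dnmt1 with 3 matches in 1 of its windows and Uhrf1 with 1 match in each of its windows. Counted by window, 3 of the 16 windows held at least 1 match. Of all windows 9.57% did, and of the 3837 windows with at least 30 CG dinucleotides 25.4% did. The other 7 genes had no match in these windows. The Uhrf1 window with the TTCGCGC match is shown in full, and the other matches with up to 10 bases on each side, because Dnmt1 and Uhrf1 are the maintenance genes described next. Capitals mark the match, read on the strand of the gene, and GCGCGAA is TTCGCGC on the opposite strand.
Uhrf1, chr17:56304063-56304362, plus strand: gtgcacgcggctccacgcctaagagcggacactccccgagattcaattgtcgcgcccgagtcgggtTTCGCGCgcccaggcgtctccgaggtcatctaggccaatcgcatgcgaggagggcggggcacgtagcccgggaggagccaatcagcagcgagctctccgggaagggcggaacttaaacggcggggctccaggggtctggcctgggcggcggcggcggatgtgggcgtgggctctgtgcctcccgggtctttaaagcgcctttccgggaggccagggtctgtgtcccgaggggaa
Uhrf1, other start site, chr17:56303279-56303305, plus strand: gctttctcgcTTCCCGCcacagcgcca
Dnmt1, chr9:20952826-20952852, minus strand: gtttccgcgcGCGCGAAaaagccgggg
Dnmt1, chr9:20952765-20952791, minus strand: caagatgccaGCGCGAAcagctccagc
Dnmt1, chr9:20952574-20952599, minus strand: ggggcagcgtTTGGCGCgggctgtgc
A match is a description of the letters and does not show binding.

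All values below are log2 expression values as deposited, and a difference of 1 on this scale is 2-fold. With 1 array per condition no difference has a replicate check and no test was run, so genes are called at 2-fold without a p-value. The 2 arrays most alike, 2WND and 2WND+2W+D+2W-D, differed with a robust standard deviation of 0.23 over genes. This value is used below as a yardstick of size only, and it is not a bound on error. Array error contributes to it on this pair, and the error on the other arrays is unknown. On this pair itself 18.5% of all genes were higher and 15.6% lower by more than 0.23. Where 1 of 2 values lies below 4.78, that value is set to 4.78 and the fold is written as "at least". The 9 AEC-II markers averaged 12.81 on the Day0 array, between 10.68 and 11.24 on the 3 culture arrays and 5.49 on the iPS array. All 13 pluripotency genes checked reached 4.78 on the iPS array, and between 4 and 7 of them did on each other array. Their mean was 8.81 on iPS and between 4.46 and 4.66 on the other arrays. The mean hides Sox2, at 6.50 on 2WND, 4.40 on 2WND+2W+D and 7.01 on 2WND+2W+D+2W-D. Sox2 was the 1 gene of the 13 at least 2-fold lower with Dox than in 2WND, as were 7.56% of all genes. It was also the 1 at least 2-fold higher after withdrawal than with Dox, as were 8.08%. Markers of other cells reached 4.78 as well. On the Day0 array 6 of 7 endothelial and all 4 ciliated cell markers did. On the 2WND array all 10 fibroblast markers, all 7 macrophage markers and 4 of 5 leukocyte markers did. Reaching 4.78 does not by itself show that such cells were present, since 6 of 7 endothelial and all 10 fibroblast markers reached it on the iPS array too. The mean of the fibroblast markers was 5.51 on Day0, 9.87 on 2WND, 10.90 on 2WND+2W+D, 10.19 on 2WND+2W+D+2W-D and 8.27 on iPS. The macrophage markers averaged 5.27, 9.29, 6.55, 8.93 and 5.55 in the same order. The part of these cells in the values below was not tested. On such bulk samples fewer cells of a type and less RNA per cell cannot be told apart.

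**Figure D2:**
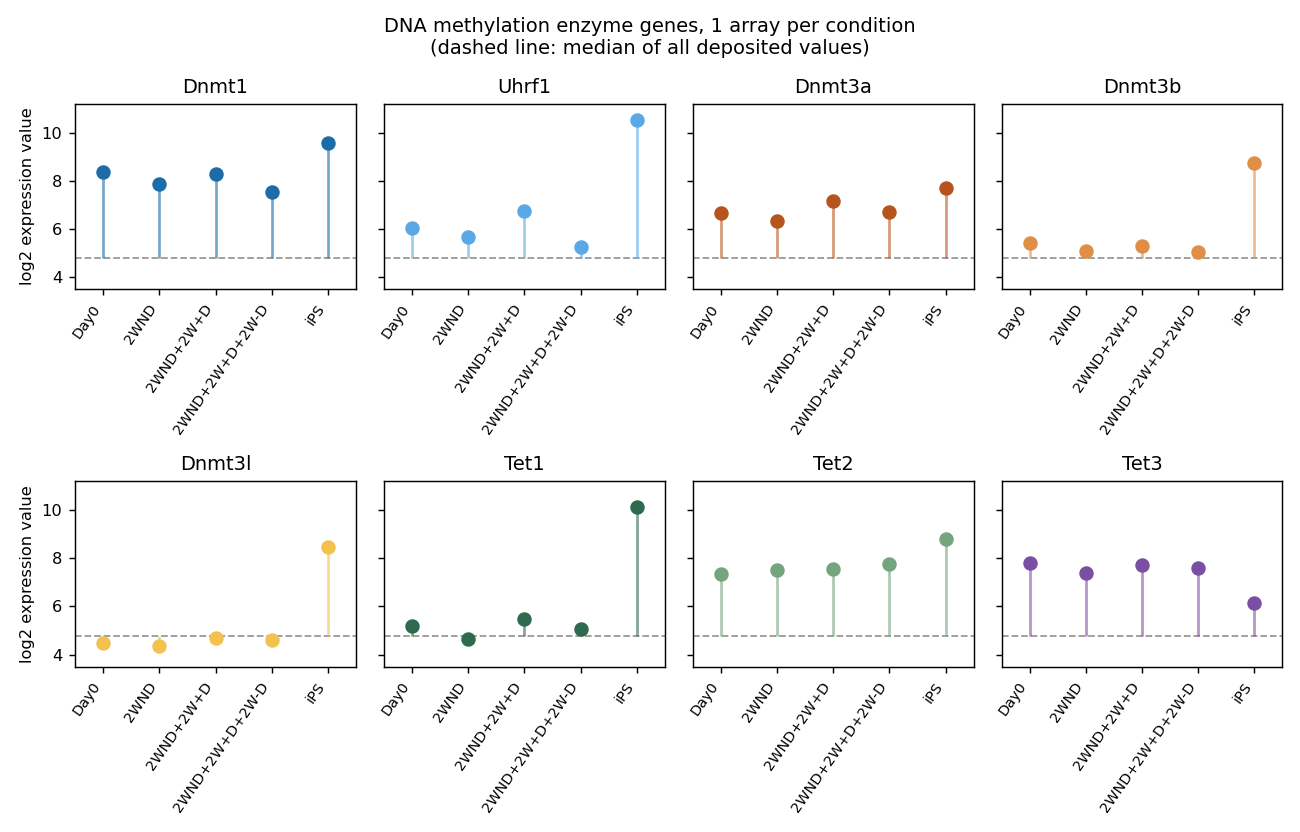
Log2 expression values (y axis) of the 8 measured genes on the 5 arrays (x axis), each point 1 array. The dashed line is the median of all deposited values, 4.78. In 7 genes the iPS array is the highest, and in Tet3 it is the lowest, at 6.14.

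Of the 8 genes, Uhrf1 had the largest difference with Dox and after its withdrawal, and Dnmt1 the fourth largest and the second largest. Uhrf1 was 6.03 on Day0, 5.67 on 2WND, 6.76 on 2WND+2W+D, 5.26 on 2WND+2W+D+2W-D and 10.51 on iPS. Every step between neighbours in this order of levels, from iPS through 2WND+2W+D, Day0 and 2WND to 2WND+2W+D+2W-D, was larger than 0.23. Uhrf1 was thus 2.13-fold higher with Dox than before it, 2.83-fold lower after withdrawal than with Dox, and 1.33-fold lower after withdrawal than before Dox. Dnmt1 was 8.35 on Day0, 7.85 on 2WND, 8.30 on 2WND+2W+D, 7.54 on 2WND+2W+D+2W-D and 9.56 on iPS. Its Day0 and 2WND+2W+D values differed by 0.05, less than the yardstick, and the lowest value was again that after withdrawal. Dnmt1 was 1.36-fold higher with Dox than before and 1.68-fold lower after withdrawal than with Dox, so that it stayed within 2-fold where Uhrf1 did not.

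Maintenance methylation follows DNA replication, and genes of cell division differed between the same arrays. Of 19 genes of S phase and mitosis, 10 were at least 2-fold higher with Dox and none was lower, where 6.9% of all genes were higher and 7.56% lower. They were 8 when values below 4.78 are raised to it, and the median difference of the 19 was 1.11 against -0.05 over all genes compared. Of the same genes 9 were at least 2-fold lower after withdrawal than with Dox, with a median of -0.96, and none was higher, where 6.17% of all genes were lower and 8.08% higher. Compared with 2WND, 1 of them was at least 2-fold higher after withdrawal, as were 0.888% of all genes. Their differences ran from -0.40 to 1.51 with a median of -0.03. Higher by more than 0.23 were 8 of them, as were 18.5% of all genes, and lower by more than that were 5, as were 15.6%. Dnmt1, at -0.31, lay within the range of the 19 genes, and Uhrf1, at -0.41, just below its lower end. The mean of the 19 genes was 6.19 on Day0, 5.67 on 2WND, 6.77 on 2WND+2W+D, 5.86 on 2WND+2W+D+2W-D and 9.87 on iPS. Their part in the values of Uhrf1 and Dnmt1 was not tested.

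**Figure D3:**
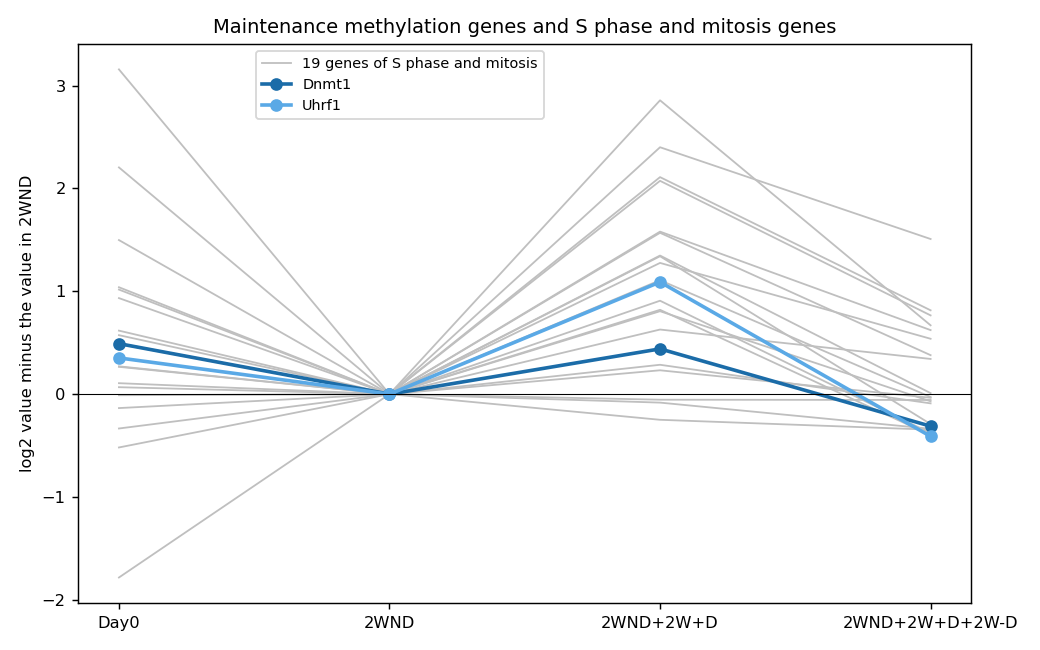
Log2 value minus the value in 2WND (y axis) on 4 arrays (x axis) for Dnmt1, Uhrf1 and 19 genes of S phase and mitosis in grey, each line 1 gene. Lines join arrays of different conditions and show no time course of 1 culture. Uhrf1 lies at 1.09 with Dox and at -0.41 after withdrawal.

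The de novo genes fell into 2 patterns. Dnmt3a was 6.66 on Day0, 6.35 on 2WND, 7.16 on 2WND+2W+D, 6.73 on 2WND+2W+D+2W-D and 7.72 on iPS. It was above 4.78 on every array, and its values after withdrawal and on Day0 lay within the yardstick of each other. With Dox it was 1.76-fold higher than before, and after withdrawal it stood 1.30-fold above its level before Dox. Dnmt3b was 5.41 on Day0, 5.08 on 2WND, 5.30 on 2WND+2W+D, 5.04 on 2WND+2W+D+2W-D and 8.75 on iPS. Apart from iPS its values spanned 0.37, and no step between neighbours in their order was above 0.23. Dnmt3l, the cofactor without catalytic activity, was 4.50 on Day0, 4.35 on 2WND, 4.69 on 2WND+2W+D, 4.59 on 2WND+2W+D+2W-D and 8.45 on iPS. It lay below 4.78 on every array but iPS, so its differences among the other 4 arrays have no interpretable fold.

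All 3 TET genes had a higher value with Dox than in 2WND, and in iPS cells Tet1 and Tet2 were higher and Tet3 lower. Tet1 was 5.18 on Day0, 4.63 on 2WND, 5.46 on 2WND+2W+D, 5.08 on 2WND+2W+D+2W-D and 10.11 on iPS. It was at least 1.60-fold higher with Dox than before it, and at least 1.23-fold higher after withdrawal than before Dox. Tet2 was 7.36 on Day0, 7.49 on 2WND, 7.55 on 2WND+2W+D, 7.76 on 2WND+2W+D+2W-D and 8.81 on iPS, with no step above 0.23 below the iPS value. Tet3 was 7.80 on Day0, 7.38 on 2WND, 7.70 on 2WND+2W+D, 7.59 on 2WND+2W+D+2W-D and 6.14 on iPS. It was the only one of the 8 genes with its lowest value on the iPS array, 1.24 below the next array, while its other neighbouring steps were within 0.23.

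After 2 weeks of culture without Dox none of the 8 genes was 2-fold different from Day0, where 14.1% of all genes compared were. Of the 8 genes, 6 were lower by more than 0.23, as were 30.4% of all genes, and none was higher by more than that, as were 32.9%. The exceptions were Dnmt3l at -0.15 and Tet2 at 0.13. The largest differences were -0.55 for Tet1 and -0.49 for Dnmt1, and the median was -0.34 against 0.01 over all genes. On the same pair of arrays 5 of 19 genes of S phase and mitosis were at least 2-fold lower and 1 was higher, with a median of -0.49, where 5.21% of all genes were lower and 8.94% higher.

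After 2 weeks of Dox all 8 genes had a higher value than in 2WND, by 0.05 for Tet2 to 1.09 for Uhrf1, where 46% of all genes compared were higher by any amount. Of the 8 genes 6 were higher by more than 0.23, as were 28.8% of all genes, and Uhrf1 was the 1 gene at least 2-fold higher, as were 6.9%. One of the 6, Dnmt3l at 0.35, lay below 4.78 on both arrays. Their median was 0.39 against -0.05 over all genes. Tet2, at 0.05, and Dnmt3b, at 0.22, were within the yardstick. None of the 8 differences lay outside the middle 90% of all genes compared, since Uhrf1, the highest, ranked 938th of 15436.

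After withdrawal 1 of the 8 genes, Uhrf1, was at least 2-fold lower than with Dox, as were 6.17% of all genes compared. Lower by more than 0.23 were 5 genes, Uhrf1 (-1.50), Dnmt1 (-0.75), Dnmt3a (-0.44), Tet1 (-0.38) and Dnmt3b (-0.26), as were 29.4% of all genes. Dnmt3b was within the yardstick after quantile normalization (-0.16) and with the array medians aligned (-0.15). Tet2 was the 1 gene with a higher value, by 0.22 as deposited and by 0.32 with medians aligned. Compared with 2WND, none of the 8 genes was 2-fold different after withdrawal, where 1.3% of all genes were. Here Tet1 (0.45), Dnmt3a (0.38), Tet2 (0.27) and Dnmt3l (0.24) were higher by more than 0.23, Uhrf1 (-0.41) and Dnmt1 (-0.31) lower, and 18.5% and 15.6% of all genes were. Tet3, at 0.21 as deposited, was at 0.27 with medians aligned. The yardstick is itself the spread of this pair of arrays, and Dnmt3l lay below 4.78 on both. Tet1 lay below 4.78 on 2WND, and counted from 4.78 its difference was 0.30. The comparison with Dox and that after withdrawal share the 2WND+2W+D array and are not independent.

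In iPS cells all 8 genes were at least 2-fold different from 2WND, where 33.4% of all genes compared were. Higher were 7, as were 15.6% of all genes, and lower was Tet3, as were 17.8%. Tet1 was at least 40.1-fold higher. Uhrf1 was 28.5-fold higher, Dnmt3b 12.8-fold and Dnmt3l at least 12.7-fold, whereas Dnmt1 was 3.25-fold, Dnmt3a 2.58-fold and Tet2 2.49-fold higher. Tet3 was 2.36-fold lower. The median of the 8 genes was 2.69 against -0.06 over all genes. Set against Day0 instead, again 7 genes were at least 2-fold higher, as were 19.3% of all genes, and Tet3 was 3.16-fold lower, where 17.1% were at least 2-fold lower. The margin was small for Dnmt3a, at 2.08-fold, and it was the 1 gene within 2-fold of Day0 after quantile normalization. Pluripotency genes and genes of S phase and mitosis moved the same way between these arrays, with 13 of 13 (12 counted from 4.78) and 18 of 19 at least 2-fold higher than in 2WND and medians of 4.80 and 4.22. Their part in the values of the 8 genes was not tested.

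**Figure D4:**
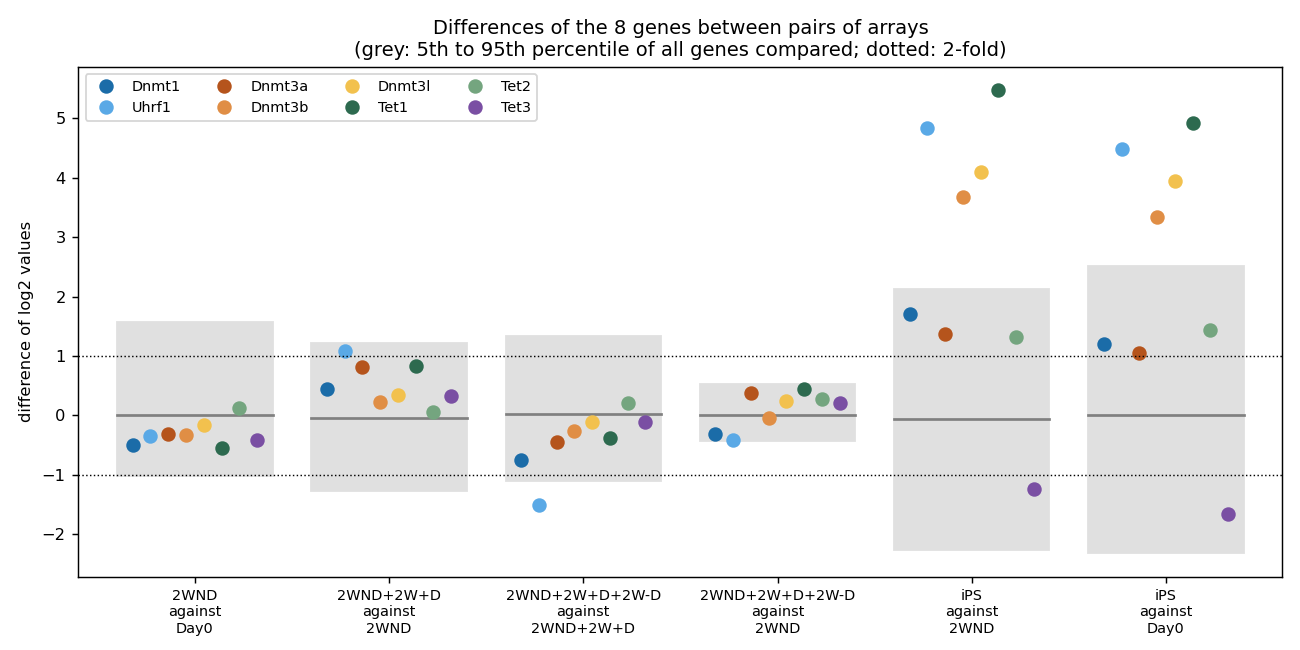
Differences of log2 values (y axis) of the 8 genes in 6 comparisons (x axis), each point 1 gene. Grey boxes span the 5th to 95th percentile of all 15436 genes compared, with their median as a line, and dotted lines mark 2-fold. Tet1, Uhrf1, Dnmt3b and Dnmt3l lie above the box in both comparisons of iPS cells.

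Set on the way from 2WND (0%) to iPS (100%), the 2WND+2W+D array stood at 59.5% for Dnmt3a, 25.9% for Dnmt1, 22.6% for Uhrf1, 15.2% for Tet1, 6.04% for Dnmt3b and 4.18% for Tet2. For Tet3 it stood at -26.0%, on the far side of 2WND from iPS. The Day0 array, of cells that saw no Dox, stood on the same scale at 28.9% for Dnmt1, 22.7% for Dnmt3a, 10.1% for Tet1, 9.13% for Dnmt3b, 7.29% for Uhrf1, -9.76% for Tet2 and -34.0% for Tet3. Dnmt3l is left out, being below 4.78 on all of these arrays but iPS, and Tet1 lay below 4.78 on 2WND. The share for Dnmt3a is large because its whole way to iPS is 1.37, and its difference with Dox was 0.81.

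For each gene the 3 genes with the most similar profile were found among 14120 candidates, by the root mean square difference of mean-centred log2 values over the 5 arrays. For Uhrf1 these were Cenpn (0.04), Aunip (0.12) and Aurkb (0.15), and for Tet1 they were Kif4 (0.08), Nusap1 (0.15) and Sgo1 (0.17). Dnmt3l was closest to Melk (0.07), Rasgrp4 (0.09) and Ska1 (0.12), and Dnmt3b to Fancd2 (0.08), Meioc (0.10) and Gstm3 (0.10). Dnmt3a was closest to Erf (0.02), Mpzl1 (0.05) and Rbm41 (0.05), and Tet2 to Lsm7 (0.06), Fbxo22 (0.07) and Daxx (0.07). Tet3 was closest to Stat3 (0.06), Ano6 (0.07) and Sec63 (0.07), and Dnmt1 to Lrrn4 (0.10), Ppfia4 (0.10) and Kif26a (0.11). Likeness over 5 arrays is a description only, and some of these genes, such as Lrrn4 and Kif4, lay below 4.78 on every array but iPS. Among the 8 genes, the most similar pair was Dnmt3b and Dnmt3l (0.21). Dnmt3l itself lay below 4.78 on every array but iPS, so this likeness rests mainly on the high iPS value of both genes.

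Some genes that work beside the maintenance enzymes differed by more than 2-fold where Dnmt1 did not. Of 8 partner genes measured, 4 were at least 2-fold lower in 2WND than in Day0 (3 counted from 4.78) and none was higher, where 5.21% of all genes were lower and 8.94% higher. Cdca7 was 6.74 on Day0 and 4.69 on 2WND, and Hells, which encodes the remodeller that CDCA7 activates and that opens chromatin for methylation, was 5.16 and 3.44. Hells was 5.52 with Dox, 4.23 after withdrawal and 9.75 in iPS cells. Lig1, the replicative ligase that helps to bring UHRF1 to new DNA, was 7.60 on Day0, 6.54 on 2WND, 7.77 on 2WND+2W+D, 6.41 on 2WND+2W+D+2W-D and 10.89 on iPS. Hells and Lig1 were the 2 of 8 partners at least 2-fold higher with Dox, as were 6.9% of all genes. They were also the 2 at least 2-fold lower after withdrawal, as were 6.17% of all genes. Counted from 4.78, Hells was within 2-fold in both comparisons. Other partners had another order, such as Pcna, the replication clamp, at 10.10 on 2WND, 9.46 with Dox and 10.10 after withdrawal, and Cdca7 at 4.94 with Dox and 5.08 after withdrawal. In iPS cells 5 of the 8 partners were at least 2-fold higher than in 2WND, as were 15.6% of all genes. Of the homologs, the tRNA methyltransferase gene Trdmt1 and the UHRF1 relative Uhrf2 were within 2-fold in all comparisons but 1, Uhrf2 being 2.38-fold higher in iPS cells than in Day0.

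Genes that target or protect methylation were within 2-fold in all 12 cases measured in each comparison without iPS cells. In these comparisons between 1.3% and 14.5% of all genes were at least 2-fold different. In iPS cells 6 of 12 were at least 2-fold higher than in 2WND and none was lower, where 15.6% of all genes were higher and 17.8% lower. Dppa3, which protects the maternal genome of the zygote from demethylation, was 3.58 on 2WND and 8.89 on iPS. Zfp57, which keeps imprints methylated, was 5.75 and 8.47, and its partner Trim28 was 9.19 and 11.31. Ezh2, the histone methyltransferase of Polycomb, was 8.04 and 11.07. Germline genes, many of which are silenced by promoter methylation in somatic cells, lay mostly below 4.78 outside iPS cells. Of 16 measured, 1 or 2 reached 4.78 on each of the other 4 arrays and 11 did on iPS. The 11 that reached it on iPS were all at least 2-fold higher there than in 2WND (8 counted from 4.78). This is partly set by the requirement to reach 4.78. None of the 11 was 2-fold different with Dox, where 14.5% of all genes were. However, only 2 of the 16 reached 4.78 on 2WND and 2 on 2WND+2W+D, so most differences with Dox have no interpretable fold. Among the 11 were Mael at 8.71, Sohlh2 at 8.56 and Dazl at 7.68 on iPS.

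On the removal side, 9 of 15 genes of base excision repair and deamination were at least 2-fold higher in iPS cells than in 2WND and 1 was lower, where 15.6% of all genes were higher and 17.8% lower. Parp1, which senses DNA breaks, was 7.23 on 2WND and 10.11 on iPS. Mbd4, a glycosylase for mismatched thymine, was 4.96 and 7.15, and Neil2, another glycosylase, was 5.20 and 7.44. Apobec1, a cytidine deaminase first known for editing RNA, moved differently, at 5.21 on Day0, 8.42 on 2WND, 6.64 on 2WND+2W+D, 8.28 on 2WND+2W+D+2W-D and 7.39 on iPS. It was the 1 gene of the 15 at least 2-fold different with Dox, where 14.5% of all genes were, and was 3.42-fold lower than in 2WND. The macrophage markers given above were high and low on the same culture arrays, and their part in the value of Apobec1 was not tested. Of 8 genes that supply or regulate TET enzymes none was 2-fold different with Dox, where 14.5% of all genes were. After withdrawal 1 of the 8, Idh2, was at least 2-fold higher than with Dox, as were 8.08% of all genes. Idh2 was 9.04 on 2WND, 8.08 on 2WND+2W+D and 9.28 on 2WND+2W+D+2W-D. In iPS cells 1 of the 8, Cxxc5, was at least 2-fold higher than in 2WND, which is no larger a share than the 15.6% of all genes.

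Of 7 genes of proteins that bind methylated DNA or belong to their family, 3 stood at least 2-fold below 2WND in iPS cells and none stood at least 2-fold above it, where 17.8% of all genes were lower and 15.6% higher. Zbtb4 was 8.03 on 2WND and 5.96 on iPS, Mbd1 was 8.38 and 6.90, and Mbd2 was 7.74 and 6.40. The other 4 were within 2-fold, of which Mbd3 (8.24 and 8.65) and Mbd6 (6.88 and 7.04) had the higher value on iPS, and Zbtb33 (7.28 and 7.01) and Zbtb38 (7.10 and 6.31) the lower. None of the 7 was 2-fold different in any comparison without iPS cells, where between 1.3% and 14.5% of all genes were.

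Genes of the methyl donor pathway held the largest difference with Dox of all lists around DNA methylation. Gnmt, which encodes glycine N-methyltransferase, an enzyme that uses up S-adenosylmethionine, was 9.56 on Day0, 9.52 on 2WND, 5.04 on 2WND+2W+D, 9.41 on 2WND+2W+D+2W-D and 6.60 on iPS. It was thus 22.4-fold lower with Dox than before it, and 20.7-fold higher again after withdrawal. The 4 markers of ciliated cells averaged 8.76, 9.15, 5.66, 9.58 and 5.89 on the same arrays and were likewise lower with Dox and in iPS cells. The macrophage markers given above were lower than on 2WND there too, but also on Day0, at 5.27, where Gnmt was 9.56. The part of either cell type in the value of Gnmt was not tested. Mthfd1, a folate enzyme, was 10.20 on 2WND, 8.87 on 2WND+2W+D and 9.85 on 2WND+2W+D+2W-D. The other 10 genes of this list were within 2-fold with Dox, where 7.56% of all genes were at least 2-fold lower and 6.9% higher. In iPS cells Ahcy, which clears the by-product of methylation, was 10.58 against 8.17 on 2WND, and Mat1a, the S-adenosylmethionine synthetase of differentiated liver, was 5.19 against 8.16. In all, iPS cells exceeded 2WND by at least 2-fold in 4 of the 11 genes and fell short of it in 2. Of all genes 15.6% were higher and 17.8% lower, so that the lower genes are about as frequent as among all genes.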

How the data were processed

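Expression was measured on 5 arrays, 1 per condition, so no replicate error is known and the number of arrays limits the precision. Affymetrix Expression Console was used by the authors, who deposited 1 log2 value per array for each of 41345 probes. The summarization algorithm, normalization and genome build are not given in the sources used here. The log base was read from the range of the values, 1.25 to 13.58. Array medians ran from 4.71 to 4.83.

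Values were used as deposited. Probes were named through the platform annotation, and of 23521 probes with 1 symbol, 23328 were found in RefSeq (GRCm38.p6) through the gene identifier. Each gene was represented by its probe of highest mean, and genes reaching 4.78 on an array were compared. Differences of log2 values were called at 2-fold without a test. Where a wider list is described, the genes named are among those of its largest differences past 2-fold, at most 5 per list and comparison, apart from Uhrf2, Trdmt1, Pcna, Mbd3, Mbd6, Zbtb33, Zbtb38 and values given on further arrays, which were chosen after their values were seen. Similar genes exclude predicted genes and small RNAs. Of the wider lists, genes without a probe of 1 symbol were left out.

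The genes studied and all lists were chosen with earlier results of these data known. Alternatives were quantile normalization, aligned medians, no or a stricter filter, averaged probes, a 4-fold threshold and values below 4.78 raised to it. The calculation was tested on simulated data. Promoter sequences are from RefSeq. Python 3.11.15, numpy 2.4.6, pandas 2.3.3 and matplotlib 3.10.9 were used.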

Additional observations from a re-analysis of the deposited data

How the results depend on the processing

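At a 4-fold threshold 0 genes were called with Dox against 2WND, 0 after withdrawal against 2WND+2W+D, 4 in iPS cells against 2WND and 4 in iPS cells against Day0. The 4 were Tet1, Uhrf1, Dnmt3b and Dnmt3l, and the stricter threshold alone sets these counts. No filter, a stricter filter and averaged probes could not change any count, since each of the 8 genes has 1 probe and passes both filters. Under quantile normalization, aligned medians and values raised to 4.78, 17 of 18 counts equalled those given, and 1 was 7 in place of 8, in iPS cells against Day0 after quantile normalization. Quantile normalization and aligned medians moved single differences by at most 0.12. At the yardstick of 0.23, Dnmt3b after withdrawal against Dox and Tet2 and Tet3 changed side as given above. Both scalings turned the sign of 2 of 48 small differences, Dnmt3b after withdrawal against 2WND, from -0.04 to 0.01 and 0.02, and Dnmt3l after withdrawal against Dox, from -0.10 to about 0. With medians aligned, the difference of Tet2 with Dox fell to 0.01. The median of all genes after withdrawal against Dox was then 0.14, where it was 0.03 as deposited, and 66.0% of the calls were higher in place of 56.7%. With values below 4.78 raised to it, Dnmt3l differed by 0 among the 4 arrays other than iPS. No paired analysis was possible because no condition has a replicate. Detection calls were not used here, so background at a single probe is unknown, which limits Dnmt3l, Dnmt3b and Tet1 most.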
